A study of Homo sapiens with 6 samples.

Results

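Kinesins are the motor proteins that walk along microtubules, and their genes are described here in the human lung carcinoma epithelial line A549 after depletion of BCLAF1. The set holds every protein-coding gene of the count table whose symbol is KIF with a number, or KIFC with a digit, which gave 40 of 29122 genes. Of these, 34 had enough reads to be tested. The BCLAF1-depleted group was made up of 3 libraries of cells stably carrying a lentiviral short hairpin RNA against BCLAF1, whose protein is found in the nucleus and is known from splicing and transcription. The control group was made up of 3 libraries of the same line carrying a hairpin against firefly luciferase, a gene absent from human cells. Cells of both groups had thus been transduced and held a hairpin, the sources used here do not give whether they are clones or a mixed population, and the labels do not say that replicates were separate cultures. Sample titles write si before BCLAF1 and the source names write A649, whereas the protocols describe a stable hairpin in A549, and the protocols were followed here. P-values therefore rest on the spread among libraries that may differ only technically. Polyadenylated RNA was sequenced in bulk, so fewer dividing cells and less RNA per cell cannot be told apart.

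Kinesins use ATP to move along or to shorten microtubules, and most walk toward the plus end. Mitotic kinesins build the spindle, align chromosomes and cut the daughter cells apart, and their genes are classically switched on late in the cell cycle through promoter elements bound by the MuvB, B-MYB and FOXM1 proteins. Transport kinesins carry vesicles, endosomes, mitochondria and ciliary cargo in resting and dividing cells alike. By textbook role, 13 genes were set down as mitotic, 15 as transport and 12 as other, the last holding regulators of microtubule ends, ciliary genes and genes without a settled role.

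BCLAF1 itself had 39.0, 35.7 and 53.1 CPM, a read count per library size, in BCLAF1-depleted libraries 1 to 3, against 211.1, 199.0 and 203.2 CPM in control libraries 1 to 3, which is 4.8-fold lower (log2 fold change -2.26 ± 0.16, SE; adjusted p = 2.31e-05). Read totals ran from 33409158 to 40820922 in the BCLAF1-depleted libraries and from 41098232 to 43928927 in the controls. On these raw totals 3 counts correspond to 0.0683 to 0.0898 CPM, a floor that covers counting error only. The CPM values printed here are further scaled between libraries (TMM), which shifts that floor. On that scale 3 reads of KIF6 in control library 3 came to 0.0624 CPM. Mitochondrially encoded transcripts took 11.4, 10.5 and 19.3% of reads in BCLAF1-depleted libraries 1 to 3, against 10.7 to 11.1% in the controls. The keratin genes KRT8 and KRT18, picked as the most abundant epithelial markers after their values were seen, lay between 14370 and 20750 CPM in BCLAF1-depleted libraries and between 14990 and 16550 CPM in controls. Of 8 leukocyte and endothelial markers, 3 could be tested, and their summed level was 3.29 to 3.91 CPM in BCLAF1-depleted libraries and 2.17 to 3.56 CPM in controls. The levels of KRT8 and KRT18 fit the epithelial label. KRT19, a keratin of the same list, reached no more than 0.832 CPM in BCLAF1-depleted and 0.338 CPM in control libraries. The leukocyte gene PTPRC was near 0 in every library, at no more than 0.117 CPM in BCLAF1-depleted and 0.0453 CPM in control libraries. The 3 tested markers, CD68, CDH5 and PECAM1, were no lower than 0.513 CPM in BCLAF1-depleted and 0.338 CPM in control libraries. Whether the lists as a whole fit the label was not tested.

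Most mitotic kinesins fell, whereas transport kinesins were in part lower and in part level, with 1 called higher. By edgeR's quasi-likelihood test, with p-values adjusted over all 15907 tested genes and called under 0.05, 9 of 12 tested mitotic kinesins were lower in BCLAF1-depleted cells and 0 were higher. The DESeq2 Wald test and limma-voom gave the same 9 and 0. Of 13 tested transport kinesins, 5 were lower and 1 was higher by edgeR at the adjusted p, and of 9 tested other kinesins 4 were lower and 2 higher. At an unadjusted p under 0.05 edgeR had 12 mitotic kinesins lower and 0 higher, 6 transport kinesins lower and 1 higher, and 4 other kinesins lower and 2 higher. The share of all tested genes at an unadjusted p was not computed, for these counts or for those of the lists below. The counts at an adjusted p stand against a background in which 18% of all tested genes were lower, 17.8% were higher and 35.8% changed in either direction. In all 12 tested mitotic kinesins the BCLAF1-depleted values lay below every control value, against 7 of 13 transport kinesins, while 26.6% of all tested genes were separated that way and 25.3% were separated in the higher direction. The median log2 fold change was -0.57 over mitotic kinesins (range -1.33 to -0.28), -0.15 over transport kinesins (range -1.17 to 0.51) and 0.02 over all tested genes. Without control replicate 1 the count of lower kinesins went to 10 in place of 18 and of lower transport kinesins to 2 in place of 5, and without control replicate 2 to 9 and 1, while 6 mitotic kinesins were lower without any 1 of the controls. Calls fell across all genes in these fits too, with 9.53% of tested genes lower without control replicate 1 and 9.57% without control replicate 2.

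**Figure D1:**
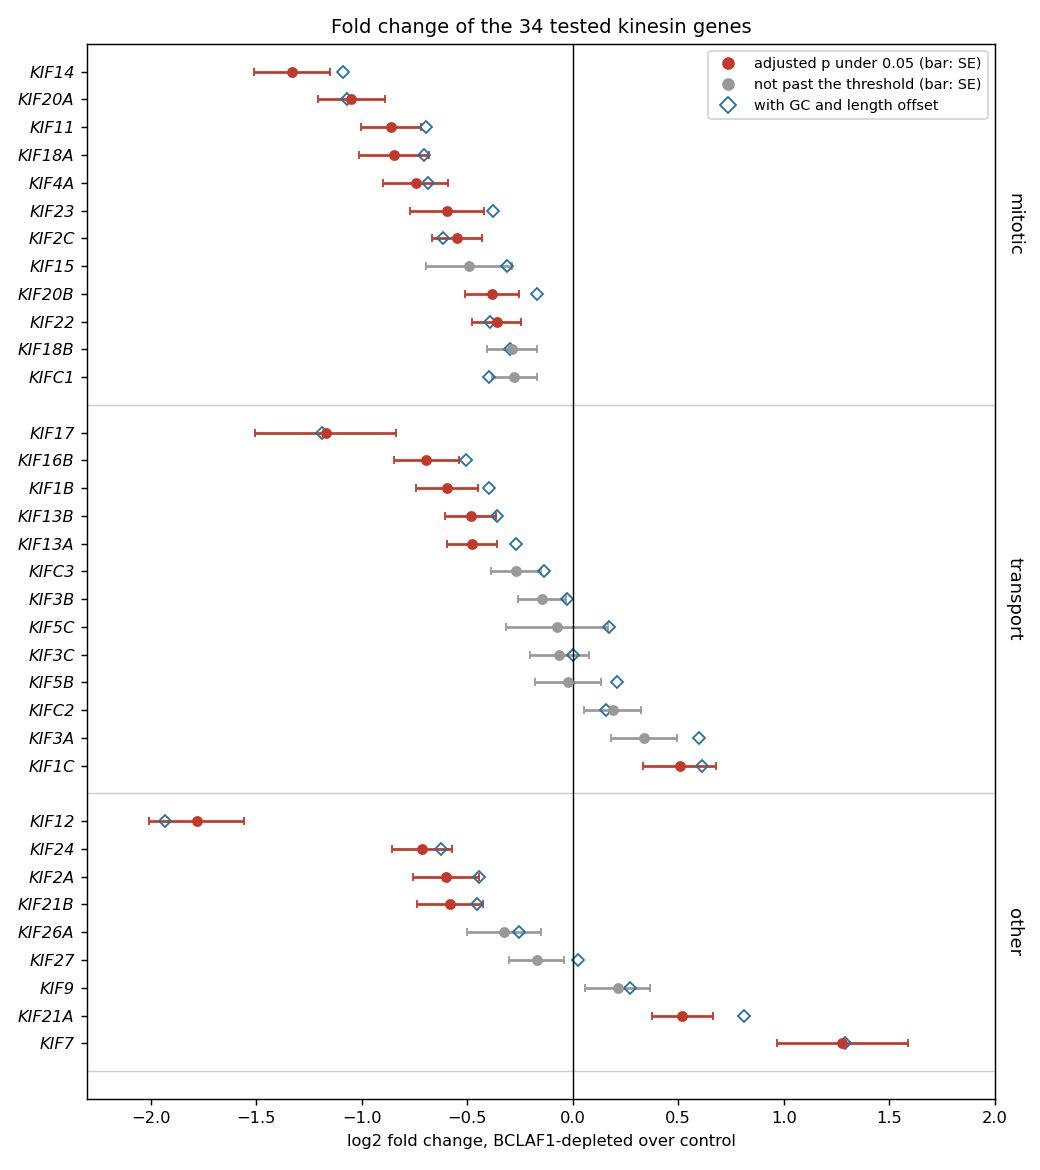
Log2 fold change (BCLAF1-depleted over control) of the 34 tested kinesin genes, grouped as mitotic, transport and other. Bars give the SE of the fold change from the edgeR fit to 3 libraries a group, and open diamonds the fit with a GC and length offset. All 12 mitotic genes lie left of 0, from -1.33 to -0.28, while transport genes run from -1.17 to 0.51.

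The plot of fold changes shows that the mitotic genes sit on the same side of 0 in both fits. It carries a second fit because fold changes in these libraries followed transcript length. In the quintile of genes with exon lengths of 3745 to 5415 bases, 18.9% were lower and 15.1% higher, and in the longest quintile 30.1% were lower and 10.3% higher. Mitotic kinesins have a median exon length of 4662 bases and transport kinesins of 7721 bases, and 0 mitotic but 6 transport kinesins belong to the longest quintile. With a smooth GC and length trend taken out of each library, 8 mitotic kinesins were lower and 0 higher, and 4 transport kinesins were lower and 2 higher, against 16% of all genes lower and 18.1% higher in that fit. The median was then -0.51 over mitotic kinesins and -0.03 over transport kinesins.

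Library by library, the median deviation of mitotic kinesins from the control mean was -0.495, -1.06 and -0.464 on the log2 CPM scale in BCLAF1-depleted libraries 1 to 3, against 0.0323, -0.0201 and -0.0178 in control libraries 1 to 3. For transport kinesins it was -0.255, -0.298 and -0.0649 in BCLAF1-depleted libraries, against 0.035, 0.0128 and -0.0687 in controls. Mitotic kinesins were thus the lower class in each BCLAF1-depleted library, most so in library 2, where the gap between the classes was -0.761, compared with -0.24 in library 1 and -0.399 in library 3. In the controls that gap ran from -0.0329 to 0.0509. Among the 9 mitotic kinesins that fell, 6 had their lowest BCLAF1-depleted value in library 2 and 6 had their highest in library 1. These medians and gaps are descriptions and carry no test.

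Summed per length, in the deposited FPKM values, which count fragments per unit of gene length and library size, mitotic kinesins came to 184.4, 131.7 and 139.8 FPKM in BCLAF1-depleted libraries 1 to 3, against 281.3, 269.9 and 277.2 FPKM in controls. Transport kinesins came to 164.8, 158.5 and 160.4 FPKM in BCLAF1-depleted libraries, against 197.5, 190.1 and 196.4 FPKM in controls. On log2(FPKM + 1) the median fold change over all genes that passed the filter was -0.21, and -0.01 with no filter. FPKM summed over all genes came to 404528, 414114 and 468543 in BCLAF1-depleted libraries 1 to 3, against 393950, 394430 and 397618 in controls. The FPKM scale thus differed between the groups, so shares within a library are the safer reading. Mitotic genes held 49.3, 41.8 and 43.5% of the summed kinesin FPKM in BCLAF1-depleted libraries, against 55.3, 55.1 and 55.2% in controls. Transport genes held 44, 50.3 and 49.9% in BCLAF1-depleted libraries, against 38.8, 38.8 and 39.1% in controls, and neither share overlapped between the groups. The larger class by FPKM was therefore mitotic in every control and in BCLAF1-depleted library 1, and transport in BCLAF1-depleted libraries 2 and 3.

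**Figure D2:**
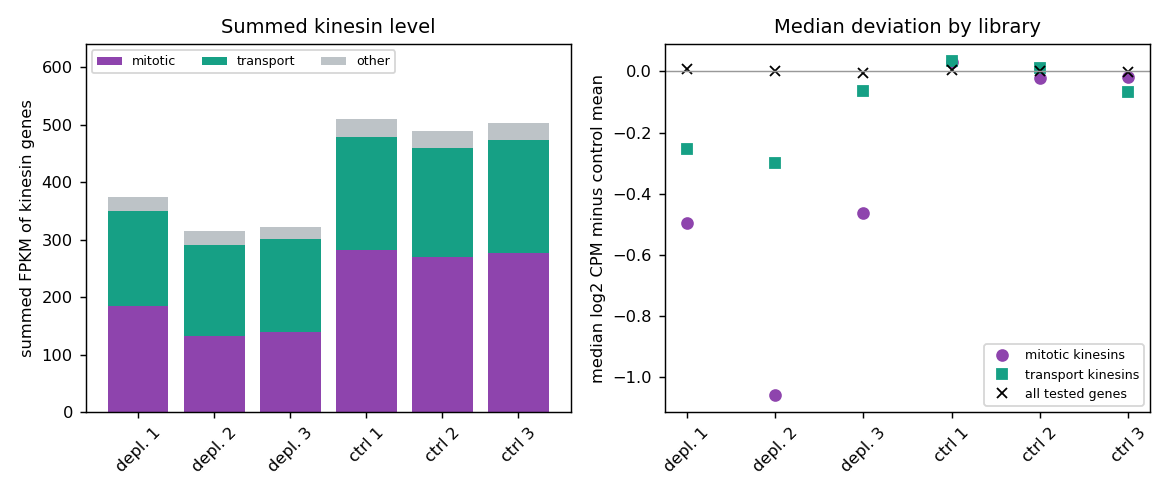
Left, summed FPKM of mitotic, transport and other kinesin genes as stacked bars in each BCLAF1-depleted and control library. Right, the median log2 CPM of mitotic kinesins, transport kinesins and all tested genes minus the control mean in each library, with mitotic medians at -0.495, -1.06 and -0.464 in BCLAF1-depleted libraries and no lower than -0.0201 in controls.

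The stacked bars place most of the drop in kinesin FPKM in the mitotic part, and the right-hand panel shows the crosses of all genes near 0 in every library. A few genes made up most of the kinesin FPKM. In BCLAF1-depleted cells the order of mean levels was KIF5B (53.3 ± 2.60 FPKM, SD, n = 3), KIF1C (46.8 ± 4.35), KIF23 (33.7 ± 9.31), KIF22 (22.1 ± 4.14), KIFC3 (21.5 ± 4.39), KIF2C (19.9 ± 1.47) and KIFC1 (19.2 ± 2.32). In control cells it was KIF5B (67.0 ± 3.36 FPKM), KIF23 (62.1 ± 1.68), KIF1C (41.0 ± 1.39), KIF2C (35.8 ± 0.581), KIF22 (34.5 ± 1.41) and KIFC3 (31.4 ± 0.877). KIF23, the motor of cell cutting, thus stood above KIF1C in every control and, in BCLAF1-depleted cells, above it only in library 1 (42.9 against 41.9 FPKM), and in BCLAF1-depleted cells all neighbours in the order overlapped in mean ± SD, KIF1C and KIF23 included, while in controls KIF5B overlapped with KIF23 and KIF2C with KIF22.

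The promoters of the genes at both ends of this contrast are shown because the mitotic set shares letters there that the symbol rule did not use. Windows of 300 bases, from 250 before to 50 after the RefSeq transcription start on GRCh38.p14, were matched by symbol for 32 of the 40 genes and searched on both strands for the cell cycle genes homology region (CHR; TTTGAA or TTCGAA) and the CCAAT box (CCAAT). In each window capitals mark a CHR or a CCAAT box in either direction, and the sequence reads 5′ to 3′ along the gene. KIF14 (chr1:200620702-200621001, minus strand), KIF20A (chr5:138178862-138179161, plus strand) and KIF11 (chr10:92592880-92593179, plus strand) are the mitotic kinesins that fell most, and KIF5B (chr10:32056376-32056675, minus strand) and KIF1C (chr17:4997700-4997999, plus strand) are the most abundant transport kinesins.
KIF14: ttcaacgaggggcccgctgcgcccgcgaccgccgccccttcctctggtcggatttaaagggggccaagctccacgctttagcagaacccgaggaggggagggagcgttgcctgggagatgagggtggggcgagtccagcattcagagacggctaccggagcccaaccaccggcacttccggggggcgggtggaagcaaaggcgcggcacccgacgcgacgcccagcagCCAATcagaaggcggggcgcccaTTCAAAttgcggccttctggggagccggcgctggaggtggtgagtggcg
KIF20A: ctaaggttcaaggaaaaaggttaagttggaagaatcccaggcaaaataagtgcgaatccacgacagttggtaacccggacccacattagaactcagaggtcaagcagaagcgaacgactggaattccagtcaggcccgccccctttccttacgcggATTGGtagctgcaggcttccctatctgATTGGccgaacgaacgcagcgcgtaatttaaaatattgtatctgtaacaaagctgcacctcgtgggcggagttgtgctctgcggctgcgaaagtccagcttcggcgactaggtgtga
KIF11: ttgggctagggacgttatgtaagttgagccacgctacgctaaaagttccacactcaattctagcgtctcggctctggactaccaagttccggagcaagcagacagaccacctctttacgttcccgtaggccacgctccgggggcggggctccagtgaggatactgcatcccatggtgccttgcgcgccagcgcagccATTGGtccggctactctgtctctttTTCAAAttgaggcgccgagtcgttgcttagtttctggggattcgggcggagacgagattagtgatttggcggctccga
KIF5B: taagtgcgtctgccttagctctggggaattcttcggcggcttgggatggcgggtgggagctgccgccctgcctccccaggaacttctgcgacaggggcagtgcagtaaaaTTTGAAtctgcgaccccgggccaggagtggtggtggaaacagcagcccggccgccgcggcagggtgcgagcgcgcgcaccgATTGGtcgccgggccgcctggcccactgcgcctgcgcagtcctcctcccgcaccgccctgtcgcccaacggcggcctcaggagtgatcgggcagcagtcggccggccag
KIF1C: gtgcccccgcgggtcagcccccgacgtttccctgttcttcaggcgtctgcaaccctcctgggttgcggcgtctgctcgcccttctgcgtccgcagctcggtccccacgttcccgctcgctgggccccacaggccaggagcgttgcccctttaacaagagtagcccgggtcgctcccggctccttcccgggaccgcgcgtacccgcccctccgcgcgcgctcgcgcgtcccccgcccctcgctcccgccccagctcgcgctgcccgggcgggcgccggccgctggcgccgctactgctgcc
KIF14 has its CHR at position 2 and its CCAAT box at position -22, counted from 1 at the start base with no position 0. In KIF11 the CHR begins at -28 and the CCAAT box at -53. KIF20A holds CCAAT boxes at -94 and -67 and no CHR in this window, and KIF1C holds neither motif. KIF5B has a CHR at -140 and a CCAAT box at -59.

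Across the family, 12 of 14 mitotic windows held a CHR (85.7%), 11 held a CCAAT box (78.6%) and 10 held both (71.4%). By gene, 11 of 13 mitotic kinesins had a CHR, the exceptions being KIF20A and KIF2C, which were both called lower. KIF15, KIF18B and KIFC1, the tested mitotic kinesins without a call, each had a CHR. Windows were matched for 13 of 13 mitotic, 11 of 15 transport and 8 of 12 other kinesins. Among the 16 windows of these transport kinesins, of which some have several, 1 held a CHR (6.25%), that of KIF5B, and 5 held a CCAAT box (31.2%). Over all 35116 RefSeq windows of this length, 16.4% held a CHR, 34.6% a CCAAT box and 6.38% both. Windows of tested genes that were lower held a CHR in 12.9% of cases, those of higher genes in 10.6% and those of genes with no call in 11.9%. Among the kinesins with a matched window the CHR letters were thus found mostly in the mitotic class. KIF24, in the class of other kinesins, has a CHR at position 2. These matches are letters in a window and were not tested as binding sites.

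Kinesins of cytokinesis, which work at the central spindle and midbody, included the pair with the largest falls of the mitotic class. KIF14, which acts at the midbody (ENSG00000118193.10; GRCh38 chromosome 1, 200551497 to 200620734, minus strand), had 23.4, 14.3 and 15.3 CPM in BCLAF1-depleted libraries 1 to 3, against 45.5, 44.4 and 43.2 CPM in controls 1 to 3. Every BCLAF1-depleted value lay far below every control value, library 1 being the highest of its group, and KIF14 fell 2.51-fold (log2 fold change -1.33 ± 0.18, adjusted p = 0.000707). KIF20A, which carries the chromosomal passenger complex to the central spindle (ENSG00000112984.10; chromosome 5, 138178719 to 138187715, plus strand), had 43.9, 28.3 and 40.1 CPM in BCLAF1-depleted libraries, against 75.6, 77.8 and 79.1 CPM in controls. Its groups did not overlap, with library 2 lowest, and it fell 2.07-fold (-1.05 ± 0.16, adjusted p = 0.00142). KIF23, the motor subunit of centralspindlin (ENSG00000137807.12; chromosome 15, 69414246 to 69448427, plus strand), had 184.7, 121.2 and 192.3 CPM in BCLAF1-depleted libraries, against 259.0, 245.7 and 247.6 CPM in controls. Library 2 again stood lowest and no values overlapped (-0.59 ± 0.18, adjusted p = 0.025). KIF20B, which acts late in cytokinesis, had 68.7, 72.1 and 82.1 CPM in BCLAF1-depleted libraries, against 107.9, 88.2 and 94.4 CPM in controls, and fell by 0.38 on the log2 scale (adjusted p = 0.0421). Its groups stood closest together of the 4, and the GC and length fit ended the calls of KIF20B (-0.17, adjusted p = 0.364) and KIF23 (-0.38, adjusted p = 0.0772), as did leaving out any 1 of the controls (KIF20B 0.0822 to 0.207 and KIF23 0.0739 to 0.0872) and, for KIF20B, BCLAF1-depleted replicate 2 (0.0895).

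Of the 3 spindle assembly motors, KIF11 fell and KIF15 and KIFC1 did not pass the test. KIF11, also called Eg5, pushes the spindle poles apart (ENSG00000138160.5; chromosome 10, 92593286 to 92655395, plus strand) and had 70.8, 49.9 and 64.3 CPM in BCLAF1-depleted libraries, against 114.2, 111.1 and 110.5 CPM in controls. The groups were well apart and KIF11 fell 1.81-fold (-0.86 ± 0.14, adjusted p = 0.00224). KIF15, which helps to keep the spindle bipolar beside KIF11, had 25.5, 16.9 and 33.3 CPM in BCLAF1-depleted libraries, against 36.7, 35.5 and 34.4 CPM in controls. It did not pass the test (-0.49 ± 0.20, adjusted p = 0.0821), since library 3 came close to the controls while library 2 lay far below them, and it passed without BCLAF1-depleted replicate 3 (-0.74, adjusted p = 0.0165). KIFC1, a minus-end motor that clusters spindle poles, had 64.2, 67.2 and 66.0 CPM in BCLAF1-depleted libraries, against 80.7, 81.6 and 76.7 CPM in controls. Its small difference missed the threshold (-0.28 ± 0.11, adjusted p = 0.0694) and passed it with the GC and length offset (-0.40, adjusted p = 0.0159) and without BCLAF1-depleted replicate 1 (-0.28, adjusted p = 0.036).

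**Figure D3:**
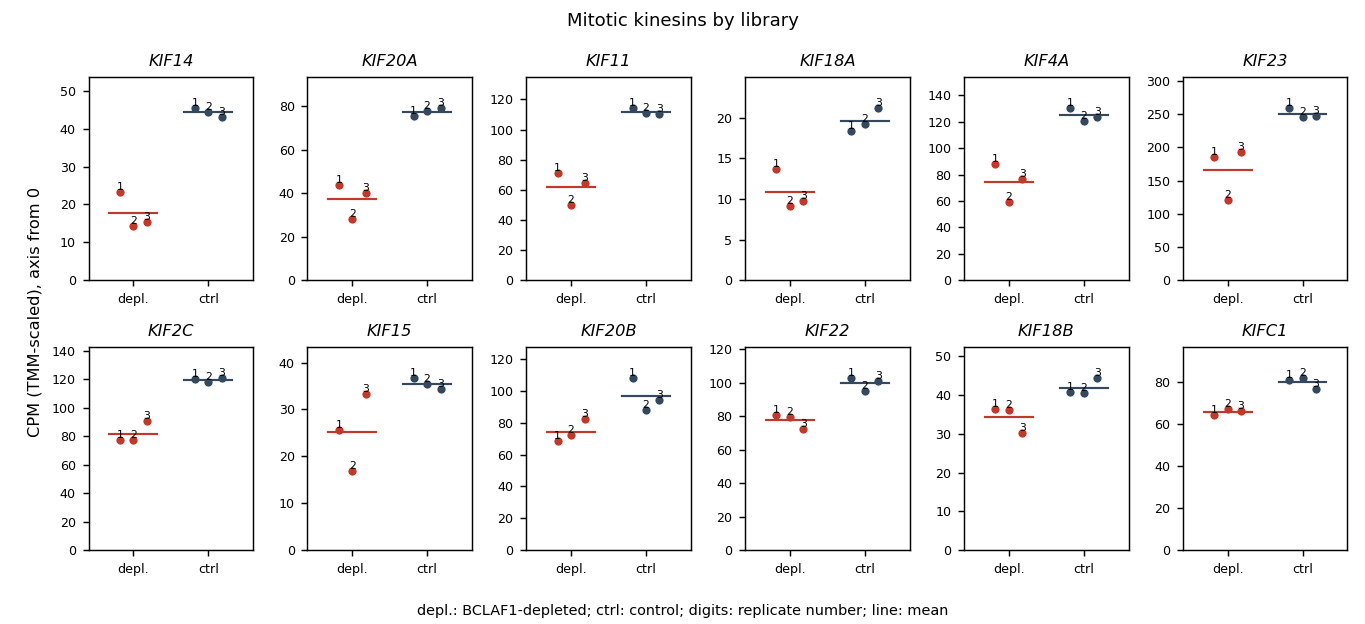
CPM of the 12 tested mitotic kinesins in each BCLAF1-depleted library (left in each panel) and control library (right), with digits for replicate numbers, lines for group means and axes from 0. Every BCLAF1-depleted point lies below every control point of its gene, and library 2 is the lowest BCLAF1-depleted point in KIF14, KIF20A, KIF11, KIF18A, KIF4A, KIF23 and KIF15.

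Motors of chromosome alignment and of microtubule ends made up the rest of the mitotic class, and the plot of mitotic kinesins by library shows the same order of groups for each. KIF18A, which dampens chromosome oscillation at the metaphase plate, had 13.7, 9.15 and 9.74 CPM in BCLAF1-depleted libraries, against 18.3, 19.2 and 21.2 CPM in controls, and fell 1.8-fold (-0.85 ± 0.17, adjusted p = 0.00459). Its relative KIF18B, which shortens astral microtubules, had 36.5, 36.3 and 30.3 CPM in BCLAF1-depleted libraries, against 40.8, 40.5 and 44.4 CPM in controls, and did not pass (-0.29 ± 0.12, adjusted p = 0.0851), though it did without BCLAF1-depleted replicate 1 (adjusted p = 0.0351). In both genes the groups were apart, by a wide margin in KIF18A and a narrow one in KIF18B. KIF4A, the chromokinesin of chromosome arms and the central spindle, had 88.2, 58.9 and 76.3 CPM in BCLAF1-depleted libraries, against 130.3, 120.8 and 123.2 CPM in controls (-0.74 ± 0.15, adjusted p = 0.00569). Its intronless copy KIF4B had 1, 2 and 2 reads in BCLAF1-depleted libraries and 2, 3 and 7 reads in controls and could not be tested, and the sources used here do not give how reads shared by the pair were assigned. KIF4A fell, with library 2 lowest, while KIF4B was at or near the counting floor in every library. KIF2C, also called MCAK, removes wrong kinetochore attachments by shortening microtubules and had 77.2, 77.8 and 90.9 CPM in BCLAF1-depleted libraries, against 120.1, 118.4 and 120.9 CPM in controls (-0.55 ± 0.12, adjusted p = 0.00738). KIF22, a chromokinesin that pushes arms to the plate, had 80.9, 79.7 and 72.5 CPM in BCLAF1-depleted libraries, against 102.8, 95.4 and 101.0 CPM in controls (-0.36 ± 0.11, adjusted p = 0.0326). Unlike most mitotic kinesins, KIF2C had its highest BCLAF1-depleted value in library 3 and KIF22 its lowest there. KIF22 lost its call without control replicate 1 (adjusted p = 0.146), control replicate 2 (0.1) or control replicate 3 (0.108) and with upper-quartile scaling (0.0515), and 13% of its exon bases lie opposite an antisense gene.

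Of the transport kinesins, the relatives of KIF1 and KIF13 that carry vesicles and endosomes held 4 of the 5 genes that fell. KIF16B, which carries early endosomes, had 38.4, 28.2 and 40.8 CPM in BCLAF1-depleted libraries, against 64.0, 57.4 and 52.2 CPM in controls (-0.69 ± 0.16, adjusted p = 0.00822). KIF1B, which carries mitochondria and vesicles, had 34.5, 27.2 and 23.9 CPM in BCLAF1-depleted libraries, against 43.7, 45.3 and 40.5 CPM in controls (-0.60 ± 0.15, adjusted p = 0.0119). Both groups of values were apart in each gene, with library 2 lowest for KIF16B and library 3 lowest for KIF1B. KIF13A, which carries endosomal cargo, had 58.2, 48.4 and 51.6 CPM in BCLAF1-depleted libraries, against 75.1, 75.0 and 69.9 CPM in controls (-0.48 ± 0.12, adjusted p = 0.0125). KIF13B, which carries vesicles and binds DLG1, had 33.5, 27.7 and 28.8 CPM in BCLAF1-depleted libraries, against 43.2, 43.5 and 39.3 CPM in controls (-0.48 ± 0.12, adjusted p = 0.0127). The pair moved alike, highest in BCLAF1-depleted library 1 and apart from the controls throughout. The GC and length offset ended the call of KIF13A (-0.27, adjusted p = 0.0645), and calls were lost without control replicate 1 by KIF13A (0.0669) and KIF13B (0.0661) and without control replicate 2 by KIF13A (0.0669), KIF13B (0.0679) and KIF1B (0.0552).

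KIF1C, a carrier of vesicles that hold integrins (ENSG00000129250.10; chromosome 17, 4997948 to 5028401, plus strand), went the other way from its relative KIF1B. It had 366.8, 492.1 and 574.6 CPM in BCLAF1-depleted libraries 1 to 3, against 348.0, 339.0 and 321.7 CPM in controls, a 1.42-fold higher level (0.51 ± 0.17, adjusted p = 0.0424). Every BCLAF1-depleted value exceeded every control value, but library 1 did so narrowly and library 3 widely. The call was lost without BCLAF1-depleted replicate 2 (adjusted p = 0.096) or 3 (0.0896), without control replicate 1 (0.121), 2 (0.134) or 3 (0.148), with library totals as the only scaling (0.25, adjusted p = 0.189) and on the FPKM values (0.18 and 0.19, adjusted p 0.266 to 0.284), and the GC and length fit kept it (0.61, adjusted p = 0.0182). In reads, KIF1C outnumbered KIF1B 10.6, 18.1 and 24.1 to 1 in BCLAF1-depleted libraries, against 7.96, 7.49 and 7.94 to 1 in controls, a ratio that does not depend on library scaling and was computed after the values were seen, with no test.

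**Figure D4:**
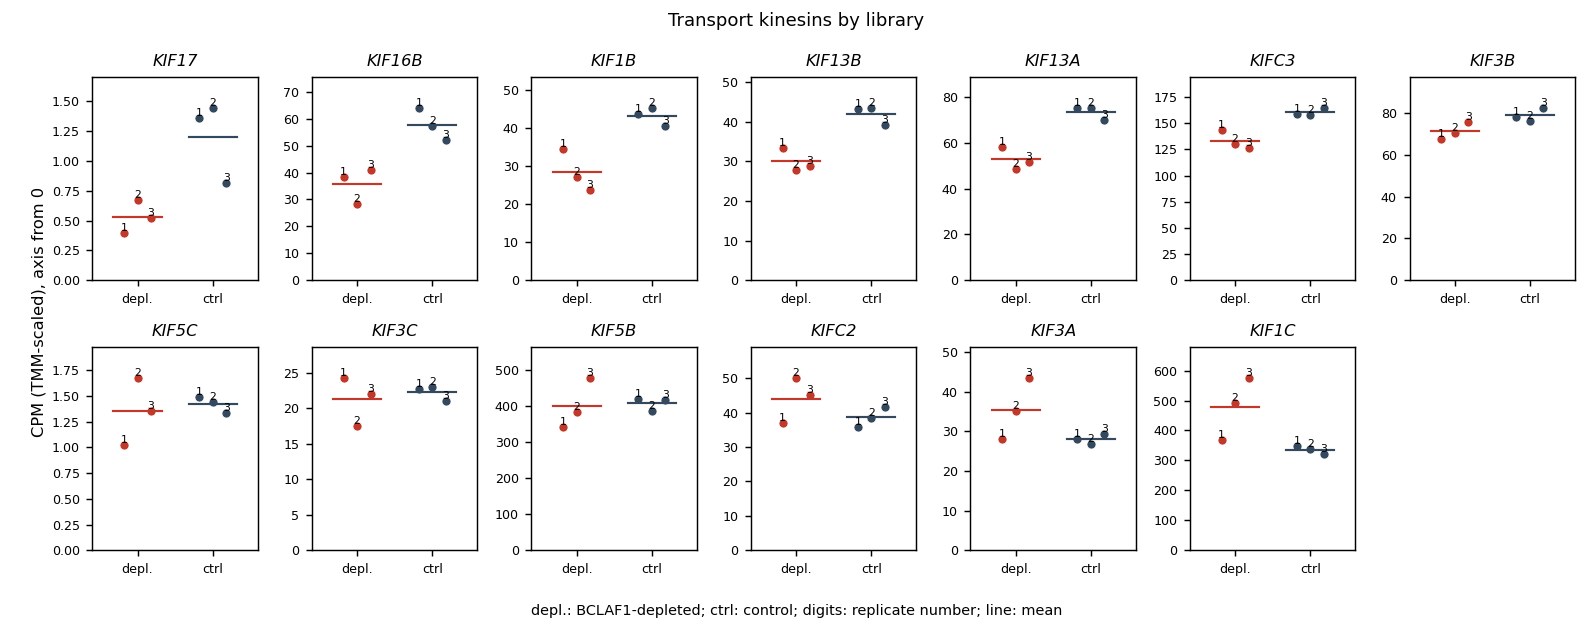
CPM of the 13 tested transport kinesins in each BCLAF1-depleted library (left in each panel) and control library (right), with digits for replicate numbers, lines for group means and axes from 0. BCLAF1-depleted points lie below all control points in 7 genes and above them in KIF1C, where they reach 574.6 CPM, and the groups overlap in the other panels.

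Conventional kinesin, the general cargo motor, did not move as the mitotic kinesins did. KIF5B, its ubiquitous heavy chain (ENSG00000170759.10; chromosome 10, 32009010 to 32056431, minus strand), had 341.4, 384.7 and 477.8 CPM in BCLAF1-depleted libraries, against 418.7, 385.8 and 418.6 CPM in controls. Libraries 1 and 2 lay below and library 3 above all the controls, library 2 only just, and the difference was smaller than the spread (-0.02 ± 0.15, adjusted p = 0.919), its sign turning with upper-quartile scaling (0.02) and with the GC and length offset (0.21). KIF5C, a heavy chain found mostly in neurons, had 1.03, 1.67 and 1.36 CPM in BCLAF1-depleted libraries, against 1.49, 1.44 and 1.33 CPM in controls (-0.07, adjusted p = 0.83; 0.17 with the GC and length offset). The neuronal heavy chain KIF5A had 4, 6 and 6 reads in BCLAF1-depleted libraries and 10, 10 and 4 reads in controls, and the synaptic vesicle motor KIF1A had 0, 5 and 4 reads in BCLAF1-depleted libraries and 3, 9 and 0 reads in controls. KIF5A and KIF1A were too low to be tested, and both groups overlapped in each. As a share of all kinesin FPKM, KIF5B held 14, 16.2 and 17.5% in BCLAF1-depleted libraries, against 13.5, 12.9 and 13.8% in controls, and KIF1C held 11.2, 15.4 and 15.6% in BCLAF1-depleted libraries, against 8.31, 8.41 and 7.86% in controls.

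Kinesins of ciliary transport and minus-end motors were mostly level. KIF3A, a subunit of the heterotrimeric motor needed for cilia, had 27.9, 35.1 and 43.4 CPM in BCLAF1-depleted libraries, against 28.1, 26.8 and 29.4 CPM in controls. BCLAF1-depleted library 1 sat within the controls and libraries 2 and 3 above them, so KIF3A did not pass (0.34 ± 0.16, adjusted p = 0.117), whereas it passed without BCLAF1-depleted replicate 1 (0.46, adjusted p = 0.00935) and with the GC and length offset (0.60, adjusted p = 0.0243). Its partners KIF3B (-0.15, adjusted p = 0.33) and KIF3C (-0.06, adjusted p = 0.746) did not pass either, and the KIF3A reads per KIF3B read came to 0.414, 0.498 and 0.574 in BCLAF1-depleted libraries, against 0.359, 0.354 and 0.357 in controls. KIF17, a homodimeric motor of dendrites and cilia, had 0.399, 0.675 and 0.524 CPM in BCLAF1-depleted libraries, against 1.36, 1.44 and 0.811 CPM in controls, resting on 14 to 64 reads a library. KIF17 fell with no overlap (-1.17 ± 0.33, adjusted p = 0.0218), though not without control replicate 1 (adjusted p = 0.082) or control replicate 2 (0.09). KIFC3, a minus-end motor of adherens junctions and the Golgi apparatus, had 143.2, 130.4 and 125.9 CPM in BCLAF1-depleted libraries, against 158.7, 158.1 and 164.4 CPM in controls (-0.27, adjusted p = 0.0998), and it passed without BCLAF1-depleted replicate 1 (-0.34, adjusted p = 0.0176). KIFC2, a minus-end motor known from neurons, had overlapping groups (0.19, adjusted p = 0.295; -0.05 with library totals alone), and 17.8% of its exon bases lie opposite FOXH1.

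Among the other kinesins, KIF12 had the largest fall of the family. KIF12, known from epithelia such as kidney and liver (ENSG00000136883.11; chromosome 9, 114086126 to 114099291, minus strand), had 1.71, 2.67 and 1.39 CPM in BCLAF1-depleted libraries, against 6.49, 6.38 and 7.01 CPM in controls, a 3.44-fold lower level (-1.78 ± 0.23, adjusted p = 0.000533). KIF24, a centriolar microtubule depolymerase that holds back ciliogenesis, had 6.07, 5.22 and 6.01 CPM in BCLAF1-depleted libraries, against 8.80, 10.4 and 9.21 CPM in controls (-0.71 ± 0.14, adjusted p = 0.00511). Both genes lay below the controls in every BCLAF1-depleted library. KIF2A, a depolymerase of spindle poles and neurons, had 23.7, 18.3 and 15.4 CPM in BCLAF1-depleted libraries, against 28.9, 29.8 and 28.3 CPM in controls (-0.60 ± 0.16, adjusted p = 0.0155), and 8.97% of its exon bases are shared with IPO11 on the same strand. KIF2A thus fell as its mitotic relative KIF2C did, though its call was lost without BCLAF1-depleted replicate 2 (adjusted p = 0.0525), control replicate 1 (0.0529) or control replicate 2 (0.0594). KIF7, a ciliary regulator of Hedgehog signalling, had 0.912, 1.38 and 1.36 CPM in BCLAF1-depleted libraries, against 0.656, 0.428 and 0.416 CPM in controls (1.28 ± 0.31, adjusted p = 0.0116). It rose with no overlap on 19 to 47 reads a library, 11.8% of its exon bases lie opposite TICRR, and its call was lost without control replicate 2 (adjusted p = 0.0539) or 3 (0.0545).

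KIF21A and KIF21B, relatives that restrain microtubule growth, moved in opposite directions. KIF21A had 98.9, 129.2 and 135.6 CPM in BCLAF1-depleted libraries, against 90.0, 83.4 and 80.3 CPM in controls (0.52 ± 0.14, adjusted p = 0.0194). KIF21B had 6.70, 7.48 and 8.72 CPM in BCLAF1-depleted libraries, against 12.6, 11.8 and 9.85 CPM in controls (-0.58 ± 0.16, adjusted p = 0.017). Neither gene overlapped between the groups, so KIF21A reads per KIF21B read came to 14.8, 17.3 and 15.6 in BCLAF1-depleted libraries, against 7.17, 7.05 and 8.15 in controls. KIF13A and KIF13B give the contrast, with ratios of 1.74, 1.74 and 1.79 in BCLAF1-depleted libraries and 1.74, 1.73 and 1.78 in controls. For the mitotic pair KIF20A and KIF20B the ratio was 0.639, 0.392 and 0.489 in BCLAF1-depleted libraries, against 0.700, 0.883 and 0.838 in controls, and for KIF18A and KIF18B it was 0.376, 0.252 and 0.322 in BCLAF1-depleted libraries, against 0.448, 0.474 and 0.477 in controls. Pairs were picked by family name and their ratios are given without a test. The call of KIF21A was lost without BCLAF1-depleted replicate 2 (adjusted p = 0.056), without control replicate 1 (0.0608), 2 (0.087) or 3 (0.089), with library totals alone (0.28, adjusted p = 0.158) and on FPKM (adjusted p 0.199 to 0.218), and that of KIF21B without control replicate 1 (0.0855) or 2 (0.0705).

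The remaining members were low or level. KIF26A (-0.33, adjusted p = 0.169), KIF27 (-0.17, adjusted p = 0.33) and KIF9 (0.21, adjusted p = 0.3) did not pass. KIF27 turned to 0.02 with the GC and length offset, and KIF9, a gene of motile cilia with 14.9% of its exon bases opposite KIF9-AS1, turned to -0.0048 with library totals alone. KIF6, KIF19 and KIF26B had 0 to 14 reads in BCLAF1-depleted libraries and 1 to 8 reads in controls and were not tested. Of the motile cilia markers, 3 were tested and 1 was higher, RSPH1 (0.86, adjusted p = 0.0188), against 17.8% of all tested genes higher. FOXJ1, which drives the program of motile cilia, stayed at or below 0.0587 CPM in BCLAF1-depleted and 0.0905 CPM in control libraries, and the summed level of the list was 5.39 to 6.996 CPM in BCLAF1-depleted libraries and 4.55 to 5.79 CPM in controls.

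Transcripts of most listed partners of mitotic kinesins fell too. Of 22 such genes, 19 were lower and 0 higher by edgeR at an adjusted p under 0.05, against 18% and 17.8% of all tested genes. The counts were the same at an unadjusted p under 0.05. With the GC and length offset 16 were lower and 0 higher, against 16% and 18.1% of all genes in that fit. Without the offset their median was -0.64 on the log2 scale. The largest falls were in the cytokinesis regulator ECT2, at 113.0, 54.9 and 64.1 CPM in BCLAF1-depleted libraries, against 180.1, 169.5 and 175.0 CPM in controls (-1.18, adjusted p = 0.00493), and in the checkpoint kinase gene BUB1B (-1.17, adjusted p = 0.00145). The mitotic kinases NEK7 (-0.90, adjusted p = 0.0257) and AURKA (-0.87, adjusted p = 0.00373) followed. The list also holds 2 kinesin motors whose symbols fall outside the rule, CENPE, which carries chromosomes to the metaphase plate (-0.64, adjusted p = 0.00336), and STARD9 (-0.61, adjusted p = 0.013). The 3 partners that did not pass were AURKB, INCENP and BIRC5, named after their values were seen. They code for members of the chromosomal passenger complex, the cargo of KIF20A. AURKB, its kinase, had 84.4, 102.3 and 79.5 CPM in BCLAF1-depleted libraries, against 94.5, 85.8 and 90.0 CPM in controls (-0.02, adjusted p = 0.908), INCENP stood at -0.02 (adjusted p = 0.956) and BIRC5 at -0.16 (adjusted p = 0.369) on the log2 scale, while the remaining member CDCA8, named with them, fell (-0.56, adjusted p = 0.0222).

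**Figure D5:**
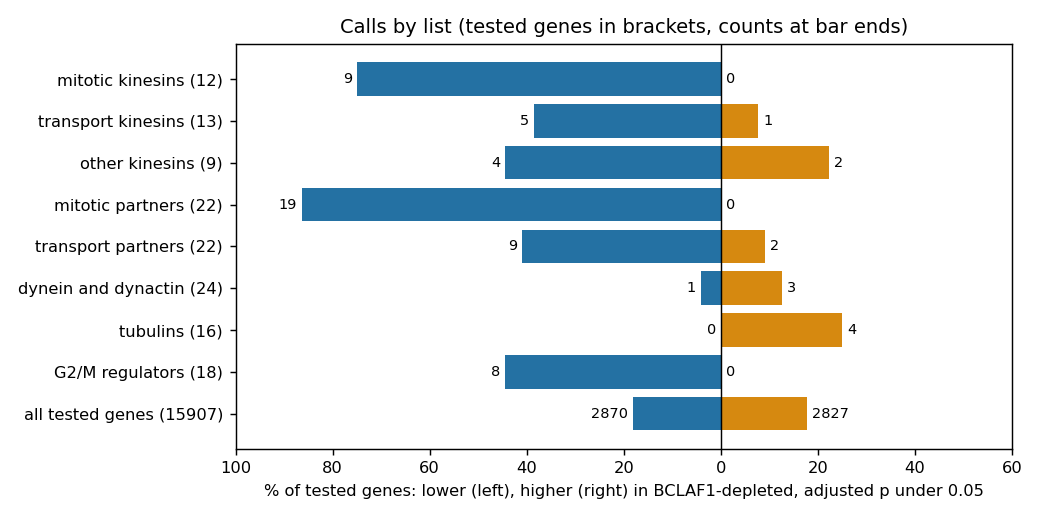
Share of tested genes called lower in BCLAF1-depleted cells (left of 0) or higher (right of 0), with adjusted p under 0.05, for the 3 kinesin classes, their partner lists, dynein and dynactin, tubulins, G2/M regulators and all tested genes, with the number called at each bar end. Lower calls reach 9 of 12 mitotic kinesins and 19 of 22 of their partners, against 18% of all tested genes.

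Read down, the bars of the lists place the mitotic kinesins beside their partners and apart from dynein and tubulin. Of 22 partners of transport kinesins, 9 were lower and 2 higher (7 and 2 with the GC and length offset), with a median of -0.21. Among all tested genes, 18% were lower and 17.8% higher without the offset. SPAG9, a scaffold that joins kinesin to cargo, had 77.1, 42.7 and 53.6 CPM in BCLAF1-depleted libraries, against 132.2, 125.6 and 119.5 CPM in controls (-1.12, adjusted p = 0.00266). The light chain gene KLC3 fell (-1.10, adjusted p = 0.0109), as did the mitochondrial adaptor RHOT1 (-0.87, adjusted p = 0.0101), and the scaffold gene MAPK8IP1 rose (1.06, adjusted p = 0.0157). Light chains join conventional kinesin to cargo, and among those named after their values were seen KLC4 (-0.80, adjusted p = 0.00149) and KLC1 (-0.55, adjusted p = 0.0133) fell while KLC2 did not pass (-0.12, adjusted p = 0.438). The heavy chain KIF5B, as given above, did not pass.

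Dynein walks toward the minus end, opposite to most kinesins. Of 24 tested dynein and dynactin genes, 3 were higher and 1 was lower (5 and 3 with the GC and length offset), with a median of 0.04, and in the fit without the offset both counts were smaller shares than those of all tested genes, 17.8% and 18%. The intermediate chain gene DYNC1I1 (1.23, adjusted p = 0.0165), DYNLRB1 (0.88, adjusted p = 0.0273) and DYNLL2 (0.54, adjusted p = 0.0137) rose, and NDE1, a dynein regulator, fell (-0.52, adjusted p = 0.0211). Of 16 tubulin genes, which code for the track itself, 4 were higher and 0 lower by edgeR, against 5 and 0 at an unadjusted p under 0.05 (3 and 1 with the GC and length offset). Beside 17.8% and 18% of all tested genes at an adjusted p under 0.05, the share of called higher genes was near the background. The higher genes were TUBA1A (1.50, adjusted p = 0.00675), TUBA1B (0.82, adjusted p = 0.039), TUBA1C (0.69, adjusted p = 0.0201) and TUBE1 (0.58, adjusted p = 0.0139), and the near-identical sequences of the alpha tubulins leave their split of reads uncertain.

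Regulators of late cell-cycle transcription were lower in part. Of 18 tested G2/M regulators, 8 were lower and 0 higher by edgeR at an adjusted p under 0.05, against 18% and 17.8% of all tested genes. At an unadjusted p under 0.05 the counts were 12 and 1. With the GC and length offset 9 were lower and 0 higher, against 16% and 18.1% of all genes in that fit. Without the offset their median was -0.38. FOXM1, the factor that drives many mitotic genes, had 71.2, 59.2 and 54.8 CPM in BCLAF1-depleted libraries, against 92.7, 91.8 and 84.1 CPM in controls (-0.54, adjusted p = 0.0117). Its groups were apart, whereas MYBL2, which codes for B-MYB, did not pass (-0.38, adjusted p = 0.0632). Of the MuvB core, LIN9 fell (-1.04, adjusted p = 0.00653), and LIN52 (-0.26, adjusted p = 0.333), LIN54 (-0.16, adjusted p = 0.55) and RBBP4 (-0.32, adjusted p = 0.0747) did not pass. LIN37 had 0 to 5 reads in BCLAF1-depleted and 2 to 5 reads in control libraries and could not be tested. The pocket protein genes of the repressive DREAM complex, RBL2 (-1.30, adjusted p = 0.00101) and RBL1 (-1.12, adjusted p = 0.00197), fell. Of the same complex, E2F4 (0.04, adjusted p = 0.806) and TFDP1 (-0.39, adjusted p = 0.0825) did not pass. CDK1, the kinase that drives entry into mitosis, named after its values were seen, had 49.9, 54.7 and 48.5 CPM in BCLAF1-depleted libraries, against 47.4, 48.0 and 53.7 CPM in controls (0.04 ± 0.12, adjusted p = 0.816). Its groups overlapped, as did those of TOP2A (-0.15, adjusted p = 0.515), and the proliferation marker MKI67 fell (-0.49, adjusted p = 0.0444), both also named afterwards. CDC25C, the phosphatase that activates CDK1 (-0.61, adjusted p = 0.00831), and the CDK1 partners CCNB1 (-0.57, adjusted p = 0.0212) and CCNB2 (-0.40, adjusted p = 0.0191), cyclins named afterwards too, fell.

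Markers of neurons, the cells in which several transport kinesins are best known, were higher in part. Of 6 tested neuron markers 4 were higher and 0 lower by edgeR at an adjusted p under 0.05, against 17.8% of all tested genes higher. The counts were the same at an unadjusted p under 0.05. The summed level of the list was 92.3 to 133.6 CPM in BCLAF1-depleted libraries and 67.8 to 72.8 CPM in controls. MAP2 (1.57, adjusted p = 0.000315), NEFM (1.54, adjusted p = 0.0262), SYP (1.44, adjusted p = 0.0004) and RBFOX3 (0.38, adjusted p = 0.0447) rose, and NEFL (0.34, adjusted p = 0.232) and SNAP25 (-0.12, adjusted p = 0.776) did not pass. STMN2 and SYN1 were near 0 in all libraries, at no more than 0.0616 CPM in BCLAF1-depleted and 0.158 CPM in control libraries. Of the transport kinesins known from neurons KIF5C and KIFC2 did not pass, and KIF1A and KIF5A were too low to test. KIF17, the motor of dendrites and cilia, fell (-1.17, adjusted p = 0.0218), on 14 to 64 reads a library. Any part of these markers in the values of transport kinesins was not tested. Of 7 epithelial markers 2 were higher, CLDN1 (1.14, adjusted p = 0.000375) and KRT19 (1.13, adjusted p = 0.0495), and 0 were lower, against 17.8% and 18% of all tested genes. The counts were the same at an unadjusted p under 0.05 in edgeR, and 1 was higher and 1 lower with the GC and length offset. KRT19 rested on 10 to 27 reads a library. Of the leukocyte and endothelial markers CDH5 rose (1.2, adjusted p = 0.00822) and PECAM1 fell (-0.89, adjusted p = 0.0359). Both lay at no more than 2.11 CPM in BCLAF1-depleted and 1.31 CPM in control libraries.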

How the data were processed

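RNA of 3 BCLAF1-depleted and 3 control A549 libraries was measured after oligo(dT) selection and directional library preparation, per the labels' protocols. The authors deposited raw read counts for 29122 genes and FPKM values, scaled for gene length and library size, for 28878 genes. The submitters' processing notes name bcl2fastq, TopHat2, edgeR and build GRCh38. The sources used here do not give what each did, which counter and gene annotation were used or whether strand was counted, so genes that overlap on opposite strands are uncertain.

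Counts were tested with edgeR 4.0.16 (R 4.3.3; quasi-likelihood fit, TMM scaling, group as the only term) on all 6 libraries. Genes were kept by filterByExpr (minimum count 10, minimum total 15), which left 15907, and p-values were adjusted by Benjamini-Hochberg and called under 0.05. CPM are TMM-scaled. Fold changes put BCLAF1-depleted over control, on the log2 scale and with their SE. That SE was worked out from the fold change and the F statistic of the edgeR test. The common biological coefficient of variation was 15.3%. Exon lengths, GC content and gene positions came from GENCODE 29 on GRCh38, and 15775 tested genes (99.2%) had both values. The GC and length offset is a smooth trend per library (mgcv 1.9.3, basis size 8). Alternatives used DESeq2 1.42.0 and limma 3.58.1. The fit was tested on simulated counts, drawn with the same dispersion for every gene and without a GC or length trend. Such counts cannot show how the fits handle that trend in these data.

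The members, classes and gene lists were chosen with earlier results of these data known. Every kinesin may be named, from each list up to 4 called genes with the largest change (or the 2 most abundant where none was called), the members of the MuvB, DREAM and FOXM1 complexes, and BCLAF1. No set test was made. Promoter windows are RefSeq's on GRCh38.p14.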

Additional observations from a re-analysis of the deposited data

How the results depend on the processing

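Mitotic kinesins were lower in number from 6 to 12 and higher in 0 across all alternatives, and KIF14, KIF20A, KIF11, KIF18A, KIF4A, KIF2C, KIF16B, KIF12 and KIF24 kept their call in all 19 refits and at an adjusted p under 0.01. Of 637 refits of single kinesins, 532 gave the same direction and side of the threshold, 57 lost a call, 27 gained one and 21 turned in sign. Counts were lower at an adjusted p under 0.01, by construction: 9 kinesins lower and 0 higher, transport kinesins 1 lower and 0 higher. With library totals as the only scaling all genes split into 1283 higher and 3662 lower (2827 and 2870 with TMM), 1 kinesin and 0 transport kinesins were higher, and the transport median was -0.38, or -0.17 relative to a median of -0.21 over all genes (mitotic -0.60). On log2(FPKM + 1) all genes split into 952 higher and 4061 lower, and in all 3 FPKM settings 0 kinesins and 0 transport kinesins were higher, with transport medians of -0.40 for log2(FPKM + 1), -0.44 for log2(FPKM + 0.1) and -0.28 with no filter. Transport kinesins that were higher numbered 2 with the GC and length offset, without or with the replicate block, and 2 when KIF21A and KIF21B were counted as transport and KIF2A as mitotic. Leaving out 1 library at a time, with 9.53 to 25.8% of all tested genes lower and 8.51 to 23% higher, gave 9 to 21 lower and 0 to 4 higher kinesins, 6 to 11 lower mitotic kinesins, 1 to 6 lower and 0 to 2 higher transport kinesins, and medians of -0.73 to -0.46 for mitotic and -0.25 to -0.13 for transport kinesins.

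The labels do not say whether replicate numbers pair the libraries, and the main fit left them unpaired. Same-numbered deviations correlated at only 0.036 to 0.119. Even so, 6 of 6 libraries correlated best with their own number, each such correlation being counted from both sides. That is a hint from the data and not the design, and pairing is not settled by it. With the replicate number as a block, 8 mitotic and 5 transport kinesins were lower and 0 transport kinesins higher, with KIF1C at an adjusted p of 0.0529. KIF20B (0.0538) and KIF22 (0.0563) lost their call and KIF15 gained one (0.0207).

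Signs turned only for kinesins that did not pass. KIF5B turned to 0.0214 with upper-quartile scaling, 0.0090 with the 5 CPM filter, 0.21 with the GC and length offset and 0.19 with that offset and the block, and ran from -0.169 to 0.0595 with 1 library left out. KIF5C turned to 0.17 with the offset and 0.15 with the block added, and ran from -0.258 to 0.0737 with 1 library left out. KIF3C turned to 0.0011 with the offset and ran from -0.191 to 0.0586 with 1 library left out, and KIF27 turned to 0.0235 with the offset and 0.0205 with the block added. KIF9 turned to -0.0048 with library totals and to -0.0399, -0.0786 and -0.0399 on FPKM, and KIFC2 to -0.0471 with library totals and to -0.10, -0.11 and -0.10 on FPKM. The causes of these shifts were not tested. Depth left 6 members untested, and of those tested it limits KIF17, KIF7 and KIF5C most, which had fewer than 70 reads in every library.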
